A study of Mus musculus with 6 samples.

Results

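The 10 genes described here encode proteins of the extracellular matrix that fibroblasts are known for: the small leucine-rich proteoglycans Dcn, Lum, Bgn, Fmod and Ogn, the adhesive glycoproteins Fn1 and Postn, the fibulins Fbln1 and Fbln2, and the microfibril protein Fbn1. They were chosen by gene symbol from the 54532 genes of the deposited count table, and all 10 were found and had enough reads to be tested. RNA had been sequenced from primary astrocytes grown in culture from the cortex of mouse pups, in 3 control and 3 knockout libraries described as biological replicates. Knockout pups carried GFAP-Cre, a Cre recombinase under the promoter of the astrocyte filament gene Gfap, together with NEOf/f, floxed alleles of Neo1, which encodes neogenin, a cell surface receptor that binds netrins and the RGM proteins. Controls were littermates whose genotype is labelled only as control, and whose library names (Neoff) refer to the floxed gene. No age, sex or treatment is given, and nothing says which pup, litter or culture a library came from, so each p-value reflects only how far these 6 samples spread, part of which may be technical. The Gfap promoter is known to be active in neural progenitors as well as astrocytes, so deletion need not be limited to astrocytes.

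Small leucine-rich proteoglycans are secreted proteins built on leucine-rich repeats, many of them carrying chondroitin, dermatan or keratan sulphate chains. They bind collagen fibrils and set their diameter and spacing, and decorin and biglycan also bind TGF-beta and cell surface receptors. Fibronectin forms the first fibrillar network that cells lay down and grip through integrins, and fibrillin microfibrils, decorated by fibulins, carry latent TGF-beta and scaffold elastin. In the brain these genes are mainly known from the meninges and the cells around vessels, and astrocytes make some of them in culture and after injury.

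Promoter sequence from the RefSeq table for GRCm38.p6 was matched to 7 of the 10 genes, and 4 windows of 250 bases, each ending just before a RefSeq start site and free of annotated exons, are shown as examples of 2 genes that rose in knockout cultures (Bgn and Postn) and 2 that fell (Fmod and Ogn). All 4 lie on the plus strand, at chrX:73483351-73483600 for Bgn, chr3:54360857-54361106 for Postn, chr1:134037004-134037253 for Fmod and chr13:49607765-49608014 for Ogn, and capitals mark matches to the motifs searched.
Bgn: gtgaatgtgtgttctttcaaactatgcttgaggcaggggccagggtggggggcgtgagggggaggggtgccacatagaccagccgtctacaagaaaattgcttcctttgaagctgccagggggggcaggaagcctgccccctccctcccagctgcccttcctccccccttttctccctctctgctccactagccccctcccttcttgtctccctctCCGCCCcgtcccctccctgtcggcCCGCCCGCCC
Postn: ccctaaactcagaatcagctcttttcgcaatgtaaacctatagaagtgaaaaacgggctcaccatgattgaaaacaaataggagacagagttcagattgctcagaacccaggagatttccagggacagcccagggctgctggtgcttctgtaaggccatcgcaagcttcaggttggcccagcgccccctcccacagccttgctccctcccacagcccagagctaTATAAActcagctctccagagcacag
Fmod: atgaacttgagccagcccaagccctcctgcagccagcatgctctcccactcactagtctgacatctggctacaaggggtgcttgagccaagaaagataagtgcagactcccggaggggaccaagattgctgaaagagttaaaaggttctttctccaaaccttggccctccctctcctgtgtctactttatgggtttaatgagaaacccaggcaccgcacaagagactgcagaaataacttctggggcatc
Ogn: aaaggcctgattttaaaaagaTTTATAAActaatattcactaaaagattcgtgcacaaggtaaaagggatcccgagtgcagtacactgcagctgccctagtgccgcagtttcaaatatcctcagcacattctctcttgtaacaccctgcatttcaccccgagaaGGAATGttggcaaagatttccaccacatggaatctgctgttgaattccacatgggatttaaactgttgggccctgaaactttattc
The motifs were searched on both strands: a TATA box (TATAAA), a GC box (GGGCGG), and motifs known for AP-1 (TGANTCA), TEAD (GGAATG), SMAD (GTCTAGAC), STAT (TTCNNNGAA), NF-kB and the interferon-stimulated response element. The Bgn window held 3 GC boxes beginning 34, 10 and 6 bases before the start site, a motif found in 32.7% of 32851 promoters of the same length, and its GC content was 64.4% against a median of 52.4% over all promoters. A TATA box began 26 bases before the Postn start site used here, and 12.4% of promoters held this motif. Another Postn window, not shown, at chr3:54359017-54359266 and with a GC content of 40.4%, held none of the motifs searched. In the Ogn window, with a GC content of 42.0%, overlapping TATA boxes began 229 and 227 bases and a TEAD motif 86 bases before the start site, and 12.6% of promoters held the TEAD motif. The Fmod window, with a GC content of 51.2%, held none of these letters. These 4 windows shared no motif except the TATA box of Postn and Ogn, which lay at different distances from the start.

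Total counts ran from 60819277 to 106081115 per library, and values are given as CPM (read counts scaled to a common library size) on library sizes adjusted by the trimmed mean of M-values (TMM). Neo1, the targeted gene, was at 189, 189 and 198 CPM in controls and 100.8, 105.99 and 104.6 CPM in knockouts, a log2 fold change of -0.89 with an SE of 0.05 (edgeR adjusted p = 5.8e-11), so it was lower in every library labelled knockout, with reads remaining. The first principal component, holding 49.3% of the variance, separated the genotypes, and the second, holding 19.6%, set knockout replicate 2 apart from the other knockouts (46.0 against -32.0 and -36.4). Astrocyte markers were present in all 6 libraries, at a summed 3536 to 3620 CPM in controls and 3102 to 3238 CPM in knockouts. Of 18530 genes tested, 3627 (19.6%) were called higher and 3466 (18.7%) lower in knockouts at an adjusted p under 0.05 in the quasi-likelihood test of edgeR, with p adjusted over all genes by Benjamini-Hochberg. Scaled by total counts alone, 2921 were higher and 4499 lower.

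RNA of 7 of the 10 matrix genes rose in the knockout cultures, 2 fell and 1 did not pass the test, against a background of 19.6% higher, 18.7% lower and 38.3% in either direction over all genes tested. Dcn and Lum rose most, followed by Fbn1, Fbln2, Bgn, Postn and Fn1, while Fmod and Ogn fell. The median log2 fold change of the 10 was 0.50, and that of all genes tested was -0.0018. Control and knockout libraries did not overlap for 9 of the 10, compared with 49.3% of all genes. Rises of at least 2-fold were seen in 3 (Dcn, Lum and Fbn1), and 4.02% of all genes tested rose that much. The 7 higher and 2 lower calls were also obtained without knockout replicate 2. In bulk RNA from a culture, a change in the number of cells of a type and a change in RNA per cell cannot be told apart.

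**Figure D1:**
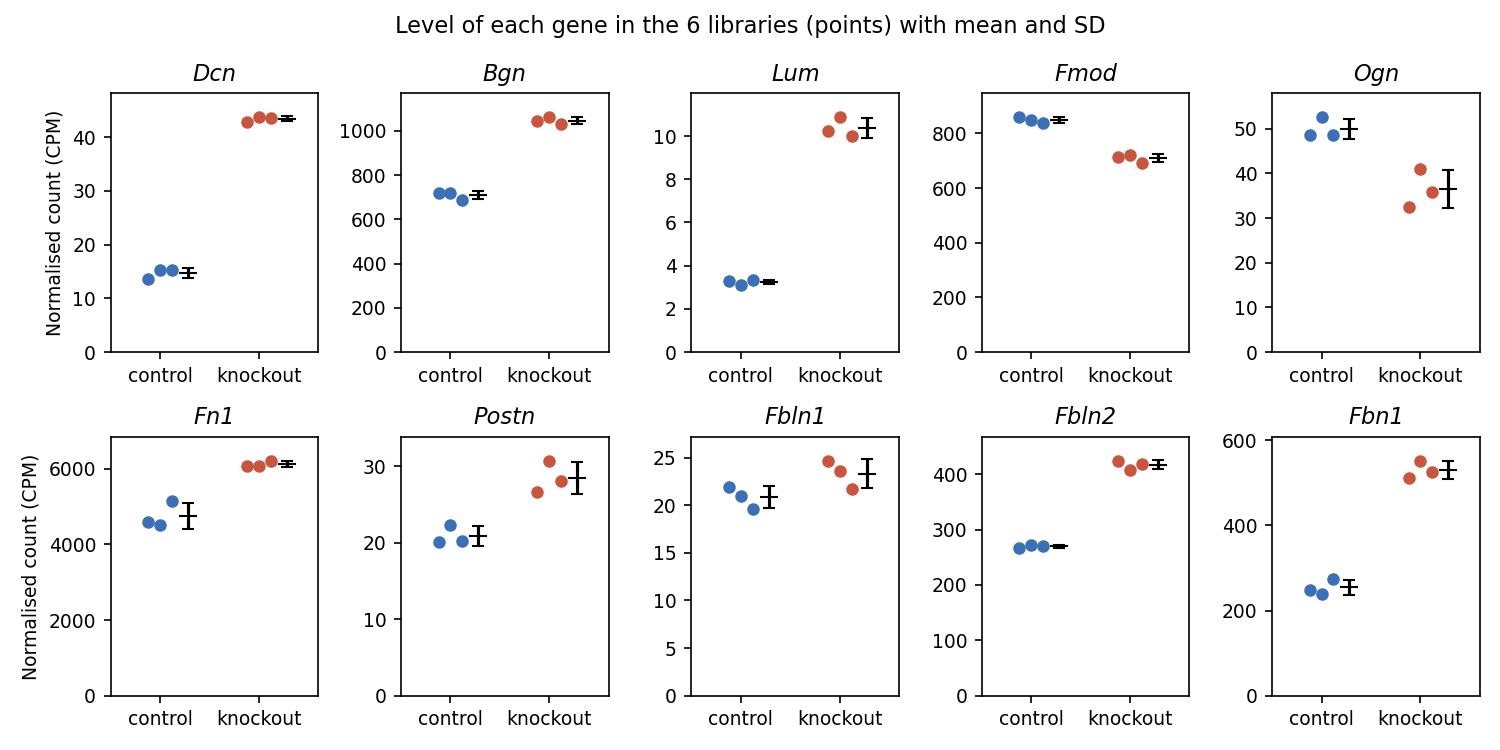
Level of each of the 10 matrix genes in each library, in CPM on linear axes from 0, with 1 panel per gene, points for the 3 control (blue) and 3 knockout (red) libraries, and the mean and SD of each group in black beside them. Knockout points lie above all control points for Dcn, Lum, Bgn, Fn1, Postn, Fbln2 and Fbn1, below them for Fmod and Ogn, and overlap them for Fbln1.

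Decorin, encoded by Dcn, carries a chondroitin or dermatan sulphate chain and binds collagen fibrils and TGF-beta. The gene (ENSMUSG00000019929) lies on chromosome 10 of GRCm38 at chr10:97479609-97518143 on the plus strand. Dcn was measured at 13.7, 15.3 and 15.2 CPM in control replicates 1, 2 and 3 and 42.9, 43.7 and 43.6 CPM in knockout replicates 1, 2 and 3. Every knockout library was above every control, and the libraries of each group lay close together. The difference was a log2 fold change of 1.56 with an SE of 0.07 (95% confidence interval 1.41 to 1.70, edgeR adjusted p = 7.4e-12), or 2.94-fold, from 14.7 ± 0.934 to 43.4 ± 0.468 CPM (SD, n = 3). These values rest on 850 to 1648 reads per control library and 3185 to 4093 per knockout library.

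Biglycan, encoded by Bgn (ENSMUSG00000031375, chrX:73483602-73495933, plus strand), is known to bind Toll-like receptors as a signal of matrix damage. Its coding sequence had 66.2% identity to that of decorin over 1042 aligned bases. This was the highest value for Dcn among the relatives compared, which did not include the asporin gene Aspn. Bgn stood at 721, 719.5 and 689 CPM in control replicates 1, 2 and 3 and 1043, 1062 and 1029 CPM in knockout replicates 1, 2 and 3. All 3 knockouts were higher, with a log2 fold change of 0.56 with an SE of 0.04 (95% confidence interval 0.48 to 0.64, edgeR adjusted p = 3e-09), or 1.47-fold. The confidence interval of the Bgn rise lay wholly below that of Dcn. Since Bgn is X-linked, the sex-linked transcripts were looked at beside it: Xist was at 0.0273 to 0.356 CPM over the 6 libraries, all 4 Y-linked genes listed were detected in every library, and these 4 were called higher in knockouts. Ddx3y, for one, went from 66.96 ± 2.22 to 114 ± 2.47 CPM (edgeR adjusted p = 1.2e-09). The part of sex composition in the Bgn difference was not tested.

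Lumican, encoded by Lum (ENSMUSG00000036446, chr10:97565128-97572703, plus strand), carries keratan sulphate and keeps collagen fibrils thin and evenly spaced, as in the clear cornea. Lum was measured at 3.28, 3.12 and 3.33 CPM in the controls and 10.2, 10.9 and 9.99 CPM in the knockouts, again with no overlap. Counts were 204, 215 and 361 reads in controls and 978, 796 and 730 in knockouts. Lum had the largest fitted change, a log2 fold change of 1.67 with an SE of 0.12 (95% confidence interval 1.42 to 1.93, edgeR adjusted p = 5.9e-09), or 3.19-fold, and its interval overlapped that of Dcn.

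Fibromodulin, encoded by Fmod (ENSMUSG00000041559, chr1:134037254-134048277, plus strand), belongs to the same class as lumican, shares binding sites on collagen with it and has 60.1% identity to it over the aligned coding bases. Unlike Lum it fell, from 860.3, 849 and 839 CPM in controls to 715, 719.8 and 693 CPM in knockouts. The step was small beside the level but larger than the spread, with no overlap: a log2 fold change of -0.26 with an SE of 0.04 (95% confidence interval -0.34 to -0.18, edgeR adjusted p = 3.1e-05). Knockout Fmod was at 0.835 of its control level.

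Osteoglycin, also called mimecan and encoded by Ogn (ENSMUSG00000021390, chr13:49608046-49624501, plus strand), is a short proteoglycan of bone, cornea and vessel walls. Its level was 48.6, 52.6 and 48.7 CPM in control replicates 1, 2 and 3 and 32.6, 41.03 and 35.9 CPM in knockout replicates 1, 2 and 3. Knockout replicate 2 was the nearest to the controls, and the groups did not overlap. The fall was a log2 fold change of -0.45 with an SE of 0.08 (95% confidence interval -0.61 to -0.29, edgeR adjusted p = 0.00012), to 0.730 of the control level.

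Fibronectin, encoded by Fn1 (ENSMUSG00000026193, chr1:71585520-71653200, minus strand), is the adhesive glycoprotein that integrins grip to build the first matrix fibrils. It was measured at 4593, 4519 and 5138 CPM in control replicates 1, 2 and 3 and 6084, 6061 and 6218 CPM in knockout replicates 1, 2 and 3. Control replicate 3 stood above the other controls and still below every knockout. The rise was a log2 fold change of 0.37 with an SE of 0.04 (95% confidence interval 0.27 to 0.46, edgeR adjusted p = 3.5e-06), or 1.29-fold. Fn1 made up 67.3% to 70.2% of the summed CPM of the 10 genes in every library. This share was not corrected for length, and the exons of protein-coding Fn1 transcripts span 8.479 kb. The sum itself was 6797, 6713 and 7319 CPM in controls and 8915, 8954 and 9024 CPM in knockouts, and without Fn1 it was 2181 to 2204 CPM in controls and 2806 to 2892 CPM in knockouts. Exons of Fn1 share 292 bases with Apol7d on the other strand, which had 3 to 34 reads per library.

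Periostin, encoded by Postn (ENSMUSG00000027750, chr3:54361109-54391037, plus strand), is a secreted protein that binds integrins and cross-links collagen in healing tissue. Postn RNA was at 20.1, 22.4 and 20.2 CPM in the controls and 26.6, 30.8 and 28.1 CPM in the knockouts. The lowest knockout was above the highest control. The difference was a log2 fold change of 0.45 with an SE of 0.08 (95% confidence interval 0.28 to 0.61, edgeR adjusted p = 0.00017), or 1.36-fold.

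**Figure D2:**
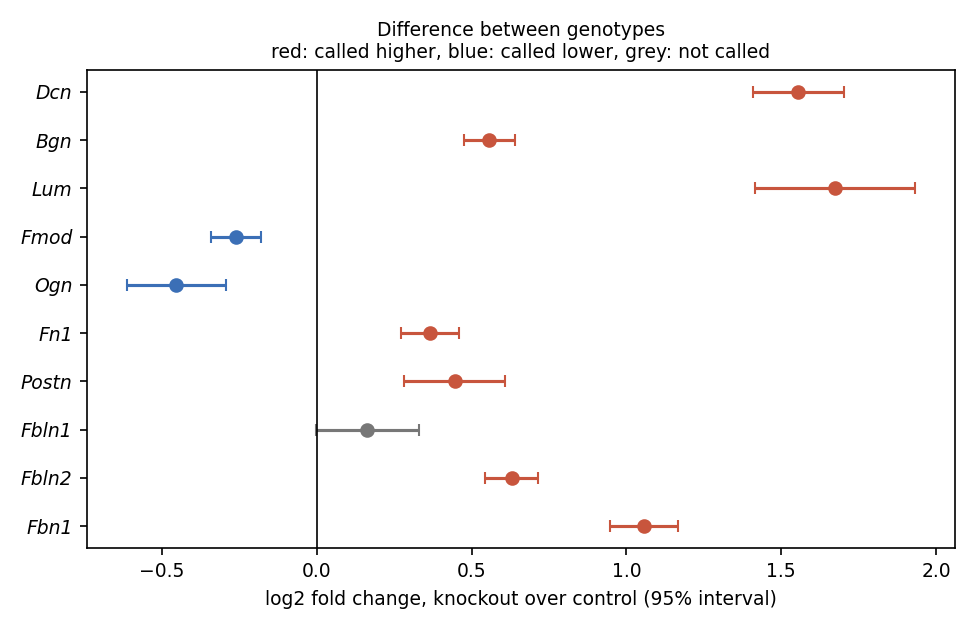
Log2 fold change, knockout against control, of each of the 10 matrix genes by edgeR, with bars for the 95% confidence interval and a line at 0. Lum (1.67), Dcn (1.56) and Fbn1 (1.06) stand furthest to the right, Fmod (-0.26) and Ogn (-0.45) lie left of 0, and the interval of Fbln1 (-0.00055 to 0.33) reaches 0.

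The fibulins are calcium-binding glycoproteins that join fibronectin, fibrillin and basement membranes. Fbln2 (ENSMUSG00000064080, chr6:91212455-91272540, plus strand) was measured at 266, 271 and 271 CPM in control replicates 1, 2 and 3 and 425, 408 and 419 CPM in knockout replicates 1, 2 and 3. The libraries of each group lay within a few percent of their mean and the groups did not overlap, with a log2 fold change of 0.63 with an SE of 0.04 (95% confidence interval 0.54 to 0.72, edgeR adjusted p = 1e-09), or 1.55-fold. Its relative Fbln1 (ENSMUSG00000006369, chr15:85205949-85286535, plus strand) had 21.9, 20.999 and 19.6 CPM in the controls and 24.7, 23.5 and 21.7 CPM in the knockouts. The lowest knockout of Fbln1 lay under the highest control, and the log2 fold change of 0.16 had a confidence interval from -0.00055 to 0.33 (edgeR adjusted p = 0.11). As a ratio within each library, which does not depend on scaling, Fbln2 reads per Fbln1 read were 12.2, 12.9 and 13.8 in controls and 17.2, 17.3 and 19.3 in knockouts, with no overlap. An exact two-sided permutation test gave p = 0.1, the smallest that 3 against 3 libraries allow (adjusted p = 0.16 over the 8 ratios compared).

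Fibrillin-1, encoded by Fbn1 (ENSMUSG00000027204, chr2:125300594-125507993, minus strand), is the main building block of microfibrils and the gene altered in Marfan syndrome. Fbn1 was at 249, 239.7 and 275 CPM in control replicates 1, 2 and 3 and 511, 553 and 526 CPM in knockout replicates 1, 2 and 3, and every knockout was above every control. The difference was a log2 fold change of 1.06 with an SE of 0.05 (95% confidence interval 0.95 to 1.17, edgeR adjusted p = 2.6e-11), or 2.08-fold. Its exons share 2442 bases with Gm9913, a gene on the other strand with 52 to 75 reads in controls and 125 to 191 in knockouts, and the sources used here do not say whether counting used strand, so reads in this stretch cannot be told apart. The related fibrillin gene Fbn2, made mostly before birth, also rose, from 17.3 ± 1.94 to 28.005 ± 1.86 CPM (edgeR adjusted p = 6e-06). Fbn1 reads per Fbn2 read were 16.4, 13.3 and 14.6 in controls and 17.1, 21.2 and 18.8 in knockouts (exact permutation p = 0.1, two-sided, adjusted p = 0.16 over the 8 ratios).

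Because counts grow with transcript length, the order of levels among different genes was taken per kilobase of the exons of their protein-coding transcripts. On this scale of CPM per kb, Fn1 led in both genotypes (560 ± 39.9 in controls, 722 ± 9.95 in knockouts), followed by Bgn (293 ± 7.36 and 432 ± 6.82), Fmod (257 ± 3.23 and 215 ± 4.33) and Fbln2 (52.5 ± 0.539 and 81.3 ± 1.63, SD, n = 3). Fbn1 and Ogn were close neighbours in controls, where their libraries overlapped (20.0 to 22.9 against 18.9 to 20.5 CPM per kb), and were far apart in knockouts (42.5 to 46.0 against 12.7 to 16.0). Dcn changed places with Ogn, from 7.01 ± 0.444 in controls, under Ogn at 19.5 ± 0.901, to 20.6 ± 0.223 in knockouts, above Ogn at 14.2 ± 1.66. Postn (6.35 ± 0.392 and 8.66 ± 0.646), Fbln1 (5.08 ± 0.277 and 5.69 ± 0.370) and Lum (1.33 ± 0.0458 and 4.24 ± 0.188) held the lowest places in both. In controls, Dcn libraries (6.499 to 7.30) overlapped Postn libraries (6.11 to 6.81), so these neighbours did not differ beyond their spread. This order depended on the length used: with all annotated exons, retained introns included, Bgn was at 116 and 171 CPM per kb, below Fmod in controls and in knockouts, and Dcn was at 2.53 and 7.43, below Ogn in both.

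**Figure D3:**
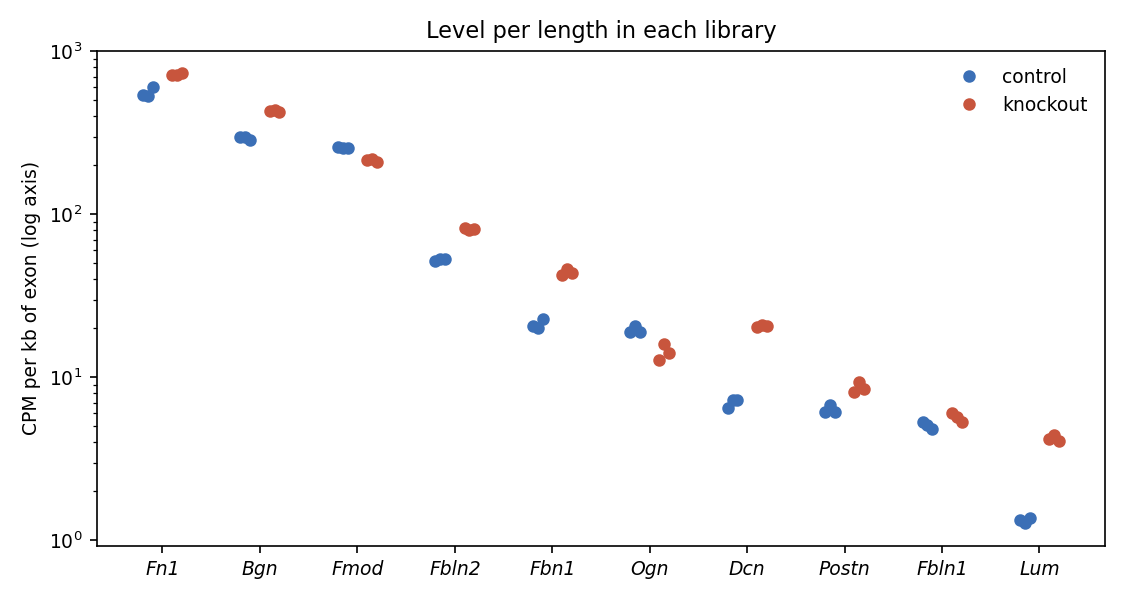
Levels of the 10 matrix genes per length, in CPM per kb of protein-coding exons on a log axis, with a point for each control (blue) and knockout (red) library and genes ordered by the control mean. Fn1 and Bgn are the 2 highest in both genotypes, and Dcn moves from 7.01 to 20.6 CPM per kb while Ogn moves from 19.5 to 14.2.

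Several of the proteoglycan genes lie next to relatives, in clusters that arose by duplication. The genes were not chosen by position, but choosing by family brings in such neighbours, and earlier results of these data were known. In the chromosome 10 cluster, Dcn, Lum, Kera and Epyc follow each other on the plus strand over 202.8 kb, with gaps of 47.0, 34.2 and 30.4 kb and no other protein-coding gene between them. Epyc, which encodes epiphycan, a proteoglycan of cartilage, was at 0.788, 0.682 and 0.693 CPM in the controls and 2.27, 2.61 and 2.09 CPM in the knockouts. Although low, it had no overlap and rose, with a log2 fold change of 1.69 with an SE of 0.26 (95% confidence interval 1.15 to 2.23, edgeR adjusted p = 4.2e-05), next to 1.56 for Dcn and 1.67 for Lum. Kera, the gene of the corneal proteoglycan keratocan, had 0, 10 and 0 reads in controls and 2, 0 and 4 in knockouts and was not tested. The only other tested gene within 1 Mb of this cluster, Btg1, which restrains cell division, had a log2 fold change of 0.24 (edgeR adjusted p = 0.0016). Epyc overlaps Gm10754 on the other strand by 1041 exon bases, and Gm10754 had 0 reads in every library.

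On chromosome 1, Optc, Prelp and Fmod lie within 151.1 kb. Prelp, whose product anchors basement membranes to collagen, was at 243, 238 and 234 CPM in the controls and 201, 199.8 and 191 CPM in the knockouts. It fell without overlap, with a log2 fold change of -0.27 with an SE of 0.04 (95% confidence interval -0.36 to -0.18, edgeR adjusted p = 6.1e-05), close to the -0.26 of Fmod. Optc, which encodes opticin of the eye, had a log2 fold change of -0.22 that did not pass the test (95% confidence interval -0.69 to 0.25, edgeR adjusted p = 0.49). Among 29 other tested genes within 1 Mb, 8 were called higher and 6 lower, beside 19.6% higher and 18.7% lower of all genes tested.

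On chromosome 13, Ecm2, Aspn, Omd and Ogn stand in a row over 119.7 kb, with 1 other protein-coding gene, Cenpp, in the same stretch. Cenpp, which encodes a centromere protein and shares 7 exon bases with Aspn on the other strand, had a log2 fold change of -0.54 (edgeR adjusted p = 0.015). Omd, which encodes osteomodulin, a keratan sulphate proteoglycan of bone, fell from 9.77 ± 0.644 to 7.04 ± 0.640 CPM (edgeR adjusted p = 0.0034), a log2 fold change of -0.47 beside -0.45 for Ogn. Ecm2, which encodes a related matrix protein, had a value of 0.25 (edgeR adjusted p = 0.23), and Aspn, the gene of asporin, had at most 12 reads per library and a value of -1.01 with an interval from -3.05 to 1.04. Of 21 tested genes within 1 Mb outside the family, Cenpp included, 2 were called higher and 5 lower. The shares of all genes tested were 19.6% higher and 18.7% lower. Omd shares a stretch of near-identical sequence with many other transcripts, so its reads may be split between genes.

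Ratios within libraries put neighbours side by side. Lum reads per Dcn read were 0.240, 0.203 and 0.219 in controls and 0.239, 0.249 and 0.229 in knockouts, overlapping (exact permutation p = 0.3, two-sided, adjusted p = 0.34). Prelp reads per Fmod read lay between 0.276 and 0.282 in all 6 libraries (exact permutation p = 0.2, adjusted p = 0.27), and Omd reads per Ogn read lay between 0.174 and 0.225 (exact permutation p = 1.0, adjusted p = 1.0). Other ratios did not overlap between the groups. Lum reads per Fmod read were 0.00381, 0.00367 and 0.00397 in controls and 0.0143, 0.0151 and 0.0144 in knockouts, and Bgn reads per Fmod read were 0.838, 0.848 and 0.822 in controls and 1.46, 1.48 and 1.49 in knockouts (exact permutation p = 0.1 for each, adjusted p = 0.16). Dcn reads per Bgn read were 0.0190, 0.0213 and 0.0221 in controls and 0.0411, 0.0412 and 0.0424 in knockouts, with the same p. The 8 ratios were chosen with the data in view, and with 3 libraries a group none could reach p under 0.1.

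**Figure D4:**
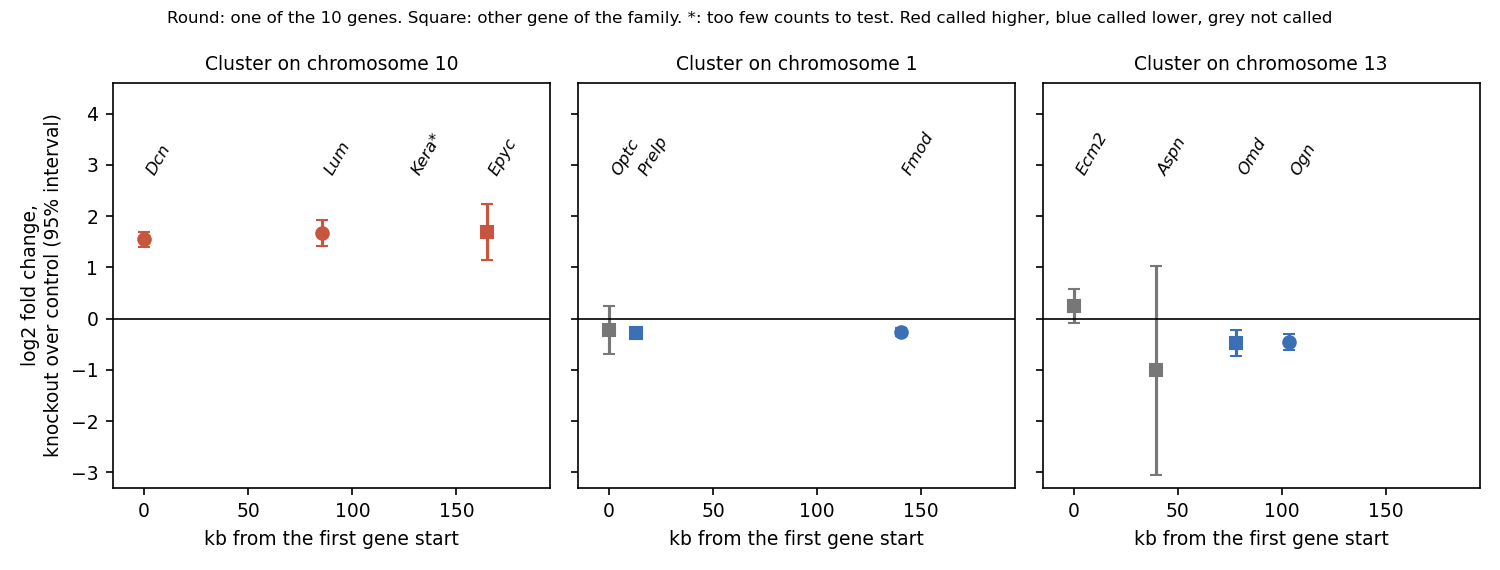
Log2 fold change, knockout against control, of the proteoglycan genes in each of the 3 clusters, plotted against distance in kb from the start of the cluster's first gene, with circles for the 10 matrix genes, squares for other genes of the family and bars for the 95% confidence interval. The 3 tested genes of the chromosome 10 cluster lie between 1.56 and 1.69, and the called genes of the chromosome 1 and 13 clusters lie between -0.47 and -0.26.

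Of the 13 other small leucine-rich proteoglycans, 11 were tested, 2 were called higher (Epyc and Chadl) and 3 lower (Podn, Prelp and Omd), with a median log2 fold change of 0.07 that was -0.23 with no filter on low counts. Podn, which encodes podocan, fell from 19.3 ± 1.48 to 12.5 ± 0.974 CPM (edgeR adjusted p = 3.6e-05). Chadl, of the chondroadherin kind and named after its values were seen, went from 3.70 ± 0.168 to 5.10 ± 0.956 CPM (edgeR adjusted p = 0.031), a call that was lost without any 1 of the 6 libraries except knockout replicate 2 (adjusted p from 0.05 to 0.22 in the other fits) and under scaling by total counts. Chadl shares 1023 exon bases with L3mbtl2 on the other strand. L3mbtl2 had 1484 to 2666 reads per library and Chadl 240 to 588. Whether counting used strand is not given, so reads in this stretch cannot be told apart. Tsku, the gene of tsukushi, an inhibitor of several secreted signals, named after its values were seen, was at 108 ± 3.64 to 113 ± 2.46 CPM (edgeR adjusted p = 0.3).

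Among the 18 other genes of elastic fibres and microfibrils, 4 rose and 6 fell, with a median of 0.02 that was -0.045 under scaling by total counts. Lox, the enzyme that cross-links collagen and elastin, rose from 607 ± 25.7 to 1128 ± 28.4 CPM (edgeR adjusted p = 1.6e-11). Emilin1, a glycoprotein of elastic fibres, rose from 61.9 ± 1.07 to 91.8 ± 11.04 CPM (edgeR adjusted p = 6.4e-06). Mfap4, a microfibril-associated protein, fell from 18.8 ± 1.52 to 9.50 ± 1.02 CPM (edgeR adjusted p = 5.4e-07). Eln, the elastin gene itself, named after its values were seen, was at 81.99 ± 3.42 to 69.7 ± 10.5 CPM and did not pass the test (edgeR adjusted p = 0.054). The rise of Fbn1 and Fbn2 stood beside falls in other genes of the same fibres.

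Genes for fibrillar collagens, which the proteoglycans bind, and for collagen processing rose more often than they fell. Of 19 such genes, 10 rose and 3 fell, with a median of 0.30. The rises included the processing genes Pcolce, Bmp1 and Adamts2, named after their values were seen. Col3a1, found with type I collagen in soft tissue, rose from 253 ± 2.71 to 496 ± 7.79 CPM (edgeR adjusted p = 2.5e-12). Col1a2, a chain of type I collagen, rose from 864 ± 18.1 to 1507 ± 60.8 CPM (edgeR adjusted p = 4.4e-11). Of the chains of type V collagen, which starts fibrils and limits their width, Col5a1 rose from 399 ± 1.05 to 588 ± 44.02 CPM (edgeR adjusted p = 6.5e-08) and Col5a3 from 132 ± 4.55 to 316 ± 26.9 CPM (edgeR adjusted p = 1e-11). The third chain, Col5a2, named after its values were seen, was at 1644 ± 24.7 to 1613 ± 6.39 CPM and did not pass the test (edgeR adjusted p = 0.6). The 3 genes that fell, also named after their values were seen, were Col11a1, Col11a2 and Col27a1, with log2 fold changes of -0.38, -0.82 and -0.41.

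Surface receptors for these proteins were counted from a list of 17, of which 11 rose and 3 fell, with a median of 0.25. Itgb3, the chain that pairs with alpha-v to bind fibronectin and periostin, rose from 23.9 ± 2.68 to 48.6 ± 1.32 CPM (edgeR adjusted p = 6e-09). Itga4, part of another fibronectin receptor, rose from 6.06 ± 0.742 to 13.6 ± 2.30 CPM (edgeR adjusted p = 1.8e-06), and Itgb8, which with alpha-v frees TGF-beta from its latent complex, from 169 ± 10.8 to 266 ± 9.77 CPM (edgeR adjusted p = 1.3e-08). Cd44, a hyaluronan receptor, rose from 1388 ± 20.8 to 1915 ± 75.1 CPM (edgeR adjusted p = 4e-08). The 3 lower calls, named after their values were seen, were Itgb5, Itga8 and Itga9, and without control replicate 3 only 1 lower call was made.

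Enzymes that build the sulphated sugar chains did not move one way: 25 of 27 were tested, 9 rose and 6 fell, with a median of 0.05 that was -0.011 under scaling by total counts. Chst11, which sulphates chondroitin at the 4 position, rose from 303 ± 16.4 to 388 ± 4.46 CPM (edgeR adjusted p = 6.1e-06), while Chst3, which sulphates it at the 6 position, fell from 38.5 ± 3.03 to 24.6 ± 1.26 CPM (edgeR adjusted p = 1.5e-06). Fam20b, a kinase that primes the linker on which the chains grow, rose from 122 ± 3.51 to 158 ± 9.52 CPM (edgeR adjusted p = 1.4e-05), and Ust, a sulphotransferase acting on dermatan and chondroitin, from 13.04 ± 0.331 to 18.9 ± 0.724 CPM (edgeR adjusted p = 5.3e-05).

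Of 10 proteases known to cut these matrix proteins, 6 rose and 3 fell, with a median of 0.34. Mmp3, which cuts decorin and fibronectin, rose from 255 ± 8.62 to 1248 ± 108 CPM (edgeR adjusted p = 5e-15), a log2 fold change of 2.29. Mmp13, a collagenase, rose with the same log2 fold change at a lower level, from 23.7 ± 0.656 to 116 ± 6.84 CPM (edgeR adjusted p = 5.5e-15). Adamts4, which cuts large and small proteoglycans, rose from 26.8 ± 0.810 to 83.04 ± 6.94 CPM (edgeR adjusted p = 1.8e-12), and the related Adamts1 fell from 427 ± 17.5 to 222 ± 6.14 CPM (edgeR adjusted p = 1.7e-11). The fitted changes of Mmp3 and Mmp13 were larger than that of any of the 10 matrix genes.

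The TGF-beta pathway, which several of the 10 proteins bind or answer to, had 7 of 13 genes higher and 2 lower, with a median of 0.17, and 4 higher under scaling by total counts. Tgfbr3, the co-receptor betaglycan, rose from 9.57 ± 0.221 to 24.7 ± 1.69 CPM (edgeR adjusted p = 7.7e-10). Skil, a repressor that the pathway induces, rose from 145 ± 7.16 to 186 ± 10.3 CPM (edgeR adjusted p = 2.6e-05). The ligand Tgfb3 fell from 81.9 ± 0.445 to 67.8 ± 0.967 CPM (edgeR adjusted p = 0.00023). Counts in these lists are to be read against the 19.6% higher and 18.7% lower of all genes.

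**Figure D5:**
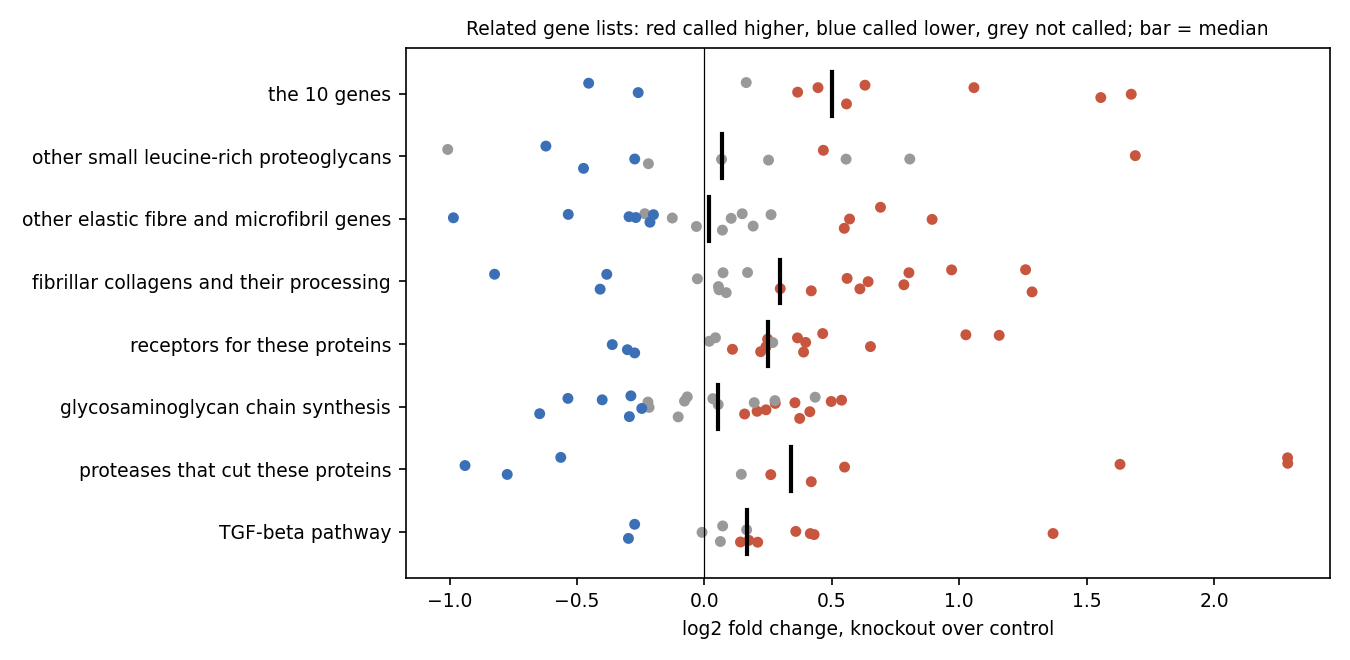
Log2 fold change, knockout against control, of each tested gene in the list of 10 matrix genes and the 7 related lists, with a point for each gene (red called higher, blue called lower, grey not called) and a bar at each list's median. The median is 0.50 for the 10 matrix genes and 0.34 for proteases, and the elastic fibre list spreads from -0.98 to 0.89 around 0.02.

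Markers of other cells that such cultures can hold were read beside these results. Counts in every marker list are to be read against the 19.6% higher and 18.7% lower of all genes tested. Fibroblast and meningeal markers numbered 22, of which 19 were tested, 9 rose and 5 fell, with a median of 0.37, yet their summed level was 883 to 923 CPM in controls and 876 to 913 CPM in knockouts. Mgp, an inhibitor of calcification made by fibroblasts and vessel cells, rose from 20.7 ± 0.754 to 46.3 ± 2.88 CPM (edgeR adjusted p = 3.1e-10). The mesenchymal transcription factors Prrx1 and Tbx18 rose from 232 ± 9.85 to 369 ± 6.53 CPM (edgeR adjusted p = 1.4e-09) and from 21.7 ± 0.952 to 37.5 ± 2.37 CPM (edgeR adjusted p = 7.6e-08). Thy1, a fibroblast surface protein that neurons also make, fell from 377 ± 11.5 to 196 ± 1.05 CPM (edgeR adjusted p = 7.2e-12) and took up much of the sum. The 3 markers too low to test were Dpt with 0 to 10, Slc22a6 with 0 to 6 and Slc6a13 with 0 to 15 reads per library. The other genes called, named after their values were seen, went both ways. Aldh1a2, an enzyme of retinoic acid synthesis in the meninges, rose from 12.6 ± 0.952 to 18.98 ± 0.644 CPM (edgeR adjusted p = 3.6e-05), Foxd1 from 10.8 ± 1.23 to 18.1 ± 3.11 CPM (edgeR adjusted p = 0.0001), Pdgfra from 7.64 ± 0.598 to 14.1 ± 0.585 CPM (edgeR adjusted p = 2.4e-06) and Twist2 from 0.740 ± 0.0306 to 3.48 ± 0.394 CPM (edgeR adjusted p = 3.7e-07). Twist1 and Foxc2 were also called higher, with log2 fold changes of 0.40 and 0.37. Slc47a1 fell from 1.02 ± 0.290 to 0.137 ± 0.0827 CPM (edgeR adjusted p = 0.00039) and Col15a1 from 2.196 ± 0.217 to 0.764 ± 0.0300 CPM (edgeR adjusted p = 0.00012), and Islr and Osr1 were called lower, with log2 fold changes of -0.20 and -0.48.

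Markers of pericytes and smooth muscle summed to 4087 to 4266 CPM in controls and 3085 to 3115 CPM in knockouts, with 3 of 10 tested genes higher and 4 lower. Acta2, smooth muscle actin, made up most of this and fell from 3849.9 ± 106.4 to 2685 ± 29.4 CPM (edgeR adjusted p = 3.3e-09), whereas Pdgfrb, a receptor of pericytes and fibroblasts, rose from 80.3 ± 3.17 to 115 ± 3.56 CPM (edgeR adjusted p = 2.4e-07). Endothelial markers went from 98.0 to 103 CPM in controls to 160 to 164 CPM in knockouts, with 4 of 9 higher and none lower. Cdh5 rose from 26.8 ± 0.439 to 53.4 ± 1.93 CPM (edgeR adjusted p = 4.7e-10) and Flt1 from 43.5 ± 2.87 to 68.1 ± 1.37 CPM (edgeR adjusted p = 1.1e-07). Esam and Kdr were also called higher. The Kdr call was lost without control replicate 1, without knockout replicate 2 and under scaling by total counts. Pecam1, Tek, Tie1, Emcn and Vwf, all under 3 CPM, did not pass the test, and Cldn5, with 0 to 14 reads per library, was too low to test. Tek had no overlap between the groups, with a log2 fold change of 0.55 (edgeR adjusted p = 0.14). Microglia and macrophage markers went from 140 to 147 CPM to 91.8 to 99.2 CPM, with 12 of 15 lower and 1 higher. Oligodendrocyte lineage markers went from 223 to 237 CPM to 136 to 166 CPM, with 5 of 8 lower. Choroid plexus and ependymal markers went from 99.2 to 102 CPM to 50.02 to 59.6 CPM, with 5 of 9 lower and 2 higher. Neuron markers were at 131 to 154 and 153 to 158 CPM. Of these, 2 of 12 were higher and 2 lower, near the 19.6% and 18.7% of all genes tested.

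Astrocyte markers had 10 of 15 genes lower and 2 higher, with a median of -0.34, against 18.7% lower and 19.6% higher of all genes tested. Gfap fell from 946 ± 20.8 to 431 ± 3.85 CPM (edgeR adjusted p = 2.4e-13), and Fgfr3 from 66.1 ± 1.41 to 25.5 ± 2.21 CPM (edgeR adjusted p = 2.5e-11), while the glutamate transporter gene Slc1a2 rose from 133 ± 8.41 to 371 ± 16.6 CPM (edgeR adjusted p = 3.1e-13). Summed marker levels did not overlap between the groups for astrocytes, microglia, endothelium, pericytes and smooth muscle, the oligodendrocyte lineage and the choroid plexus and ependyma. They overlapped for fibroblast and meningeal and for neuron markers. The fibroblast and meningeal sum included Thy1, which fell from 377 to 196 CPM. Of the 19 markers tested in that list, Thy1 among them, 9 rose and 5 fell. The part of these cell types in the differences of the 10 matrix genes was not tested.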

How the data were processed

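Bulk RNA was extracted with Trizol and selected with poly-T beads, per the labels' protocols. The deposited values are raw read counts by gene, which the authors made on the GRCm38 build with HISAT2 2.2.1 and with featureCounts 2.0.6, as the submitters' processing notes list them. Which annotation release was used, whether counting used strand and how multi-mapped reads were treated is, in the sources used here, not given, and each can change the counts of overlapping or near-identical genes. Total counts per library ran from 60819277 to 106081115.

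Here, columns were matched to libraries by name and groups taken from the labels' titles. Within a group, libraries differed beyond sampling noise (5.97 to 21.8 chi-square units per gene), so none was counted as a duplicate. Genes passing filterByExpr (minimum count 10, minimum total 15), 18530 of 54532, were fitted with edgeR 4.0.16 in R 4.3.3 (TMM, robust glmQLFit, glmQLFTest, genotype alone, two-sided, Benjamini-Hochberg, threshold 0.05). Standard errors came from the test statistic. The fit was also run on simulated counts in which few genes changed, evenly up and down, with the same spread setting for every gene. Many more genes were called in the real data, so that run does not test the calls made here. Gene models came from GENCODE M21, and promoters from RefSeq (GRCm38.p6). Near-identical copies were sought with BLAST 2.17.0 (at least 95% over 100 bases).

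The 10 genes and all lists were chosen with earlier results of these data known. Genes named are the 10, Neo1, cluster neighbours and up to 4 called genes per list with the smallest adjusted p. A gene that this rule names is not reported here. All other genes named, including markers and sex-linked, antisense or flanking genes that this rule does not name, were chosen after their values were seen. Alternatives were other scalings, DESeq2 1.42.0, limma-voom (3.58.1), other filters, the non-robust fit, a replicate block, a threshold of 0.01 and each library left out. The all-exon lengths were chosen after seeing the data.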

Additional observations from a re-analysis of the deposited data

How the results depend on the processing

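The 7 higher and 2 lower calls among the 10 matrix genes were obtained under all 16 alternatives, and Fbln1 was called under none. Log2 fold changes over 15 refits ran from 1.49 to 1.58 for Dcn, 1.61 to 1.70 for Lum, 0.99 to 1.11 for Fbn1, 0.30 to 0.42 for Fn1, -0.32 to -0.24 for Fmod, -0.55 to -0.38 for Ogn and 0.10 to 0.21 for Fbln1. Their largest edgeR, DESeq2 or limma adjusted p was 0.0026 for a called gene (Postn) and 0.36 for Fbln1. Replicate numbers did not pair the libraries (correlation of same-numbered deviations 0.015, 0.019 and -0.0082), and a replicate block gave 3501 higher and 3383 lower genes, with 7 higher and 2 lower among the 10. Scaling by total counts gave 2921 higher and 4499 lower genes (3627 and 3466 with TMM) and a median over all genes of -0.067. It also left 1 higher call among the other small leucine-rich proteoglycans, 4 in the TGF-beta list, and medians of -0.045 for elastic fibre genes and -0.011 for sugar chain synthesis.

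Leaving out 1 library gave 1 to 2 higher calls among the other small leucine-rich proteoglycans and 1 to 3 lower calls among receptors. List medians near 0 changed sign when 1 library was left out, with ranges of -0.11 to 0.081 for the other small leucine-rich proteoglycans, -0.00033 to 0.030 for elastic fibre genes and -0.029 to 0.14 for sugar chain synthesis. The first of these was -0.23 with no filter and -0.070 with a filter of 1 CPM in 3 libraries, and the pericyte and smooth muscle median was 0.023 with no filter; the cause was not tested. With 3 libraries a group, genes of few reads, such as Aspn, have wide intervals.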
